A study of Mus musculus with 12 samples.

Results

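The genes described here encode 2 families of protease inhibitors, the serpins and the Kunitz-type inhibitors named Spint. They were chosen by name, as the rows of the expression table whose symbol begins with Serpin, a clade letter from a to i and a number, or with Spint and a number, and 65 of the 20308 genes in the table matched. Serpina3i was singled out when the set was drawn up because it was among the genes that appeared in the mutant, so its values are given as a description, with no test. RNA was measured in urogenital sinus epithelium, the lining of the tube that later forms prostate, urethra and bladder neck, from C57BL/6J mouse embryos at embryonic day 15.5. Control libraries (4) came from wildtype embryos, and Dnmt1cKO libraries (8) from mutants whose Dnmt1 was removed from this epithelium with an Shh cre driver. Dnmt1 is the enzyme that copies DNA methylation after replication. The epithelium was separated by trypsin, and lysates pooled several embryos of 1 harvest, so each library stands for a pool and not for an embryo. The deletion is limited to cells with a history of Shh expression, and any other cells in the pool keep Dnmt1.

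Serpins inhibit by a trap: the protease cuts an exposed loop of the inhibitor, stays bound to it, and is dragged out of shape. Clade a serpins are mostly secreted, by the liver above all, and include the antitrypsins and antichymotrypsins. Clade b serpins lack a classical secretion signal and protect cells from their own or from foreign proteases, and several are genes of skin, bladder and gland epithelium. Kunitz inhibitors block the protease without being consumed, and Spint1 and Spint2 do so on the surface of epithelial cells, where matriptase, hepsin and prostasin are their targets.

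The libraries differed in depth and in kind. The expected counts summed to 7577706 in Control 1, 2915193 in Control 2, 1613514 in Control 3, only 543591 in the library labelled Control 4, and 4007533 to 11970907 per mutant. Where 0 are counted, 3 counts are the upper 95% bound for counting error alone. On this depth, 3 counts correspond to 0.369, 1.01, 2.26 and 8.53 CPM (counts scaled to a common library total) in these Controls. Dnmt1 itself stood at 164, 114 and 237 CPM in Controls 1 to 3 and at 22.8 to 97.0 CPM in Dnmt1cKO (log2 fold change -1.29 ± 0.63, SE, adjusted p = 0.284 over all 4 Controls). The library labelled Control 4 held 1 Dnmt1 count (2.84 CPM), less than any mutant, which goes against its label. This value comes from the shallowest library and lies below both groups, so it does not settle the genotype. Epithelial markers added up to 10104 and 19577 CPM in Controls 1 and 2, to 4110 CPM in Control 3, to 36676 CPM in the library labelled Control 4 and to 6909 to 12420 CPM in Dnmt1cKO. Grhl2 and Cldn3 had no count in Control 3, nor Krt14 in the library labelled Control 4. Stromal markers added up to 1322 to 10867 CPM in Control and 444 to 6846 CPM in Dnmt1cKO, highest in Control 3. Sample descriptions carry a code, b and a number, of unstated meaning: 4, 5, 6 and 7 in Controls 1 to 4, and 2, 3, 4, 5, 6, 7, 7 and 7 in Dnmt1cKO 1 to 8.

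Of the 65 genes, 29 had no count in any library, 36 had a count in at least 1, and 22 passed the filter on low counts and were tested. All members of clade c (Serpinc1, antithrombin) and clade d (Serpind1, heparin cofactor) were at 0. Counts were found for 16 of 23 clade a, 11 of 26 clade b, 2 of 3 clade e, 1 of 2 clade f, 1 of 2 clade i and 3 of 5 Spint genes, and for the sole members of clades g and h. Of the 36 genes, 16 had counts in Dnmt1cKO and none in any Control library, 10 of them in clade a and 5 in clade b. That is 44.4%, against 13.9% of the 15825 genes of the table with a count. The Control libraries together are shallower, and 10 of the 16 genes had counts in only 1 or 2 libraries, so the level was also considered: 5 of the 36 (13.9%) had no Control count and a mean of at least 1 CPM in Dnmt1cKO, against 3.99% of genes with a count. These were Serpina3g, Serpina3i, Serpina3n, Serpinb11 and Serpinb1c. Serpina3i was named when the set was drawn up, and Serpina3g, Serpina3i and Serpina3n are related genes of the same cluster. They are not separate observations, so nothing is read from either share.

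**Figure D1:**
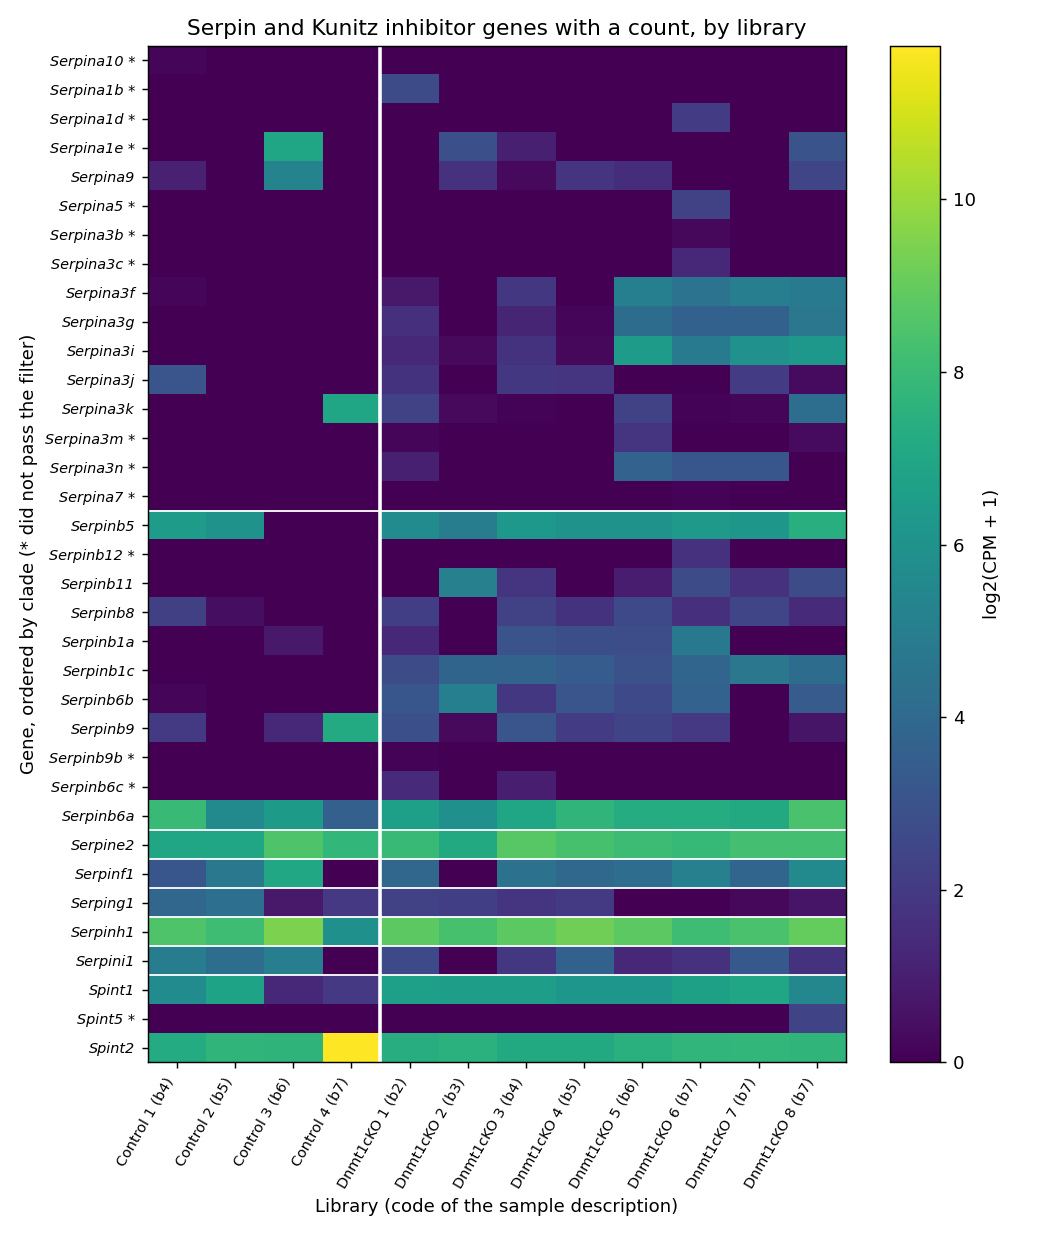
Level of 35 of the 36 genes with a count (rows, by clade and then by position on the chromosome) in the 12 libraries (columns, with the description code), as log2(CPM + 1); asterisks mark the 14 genes that did not pass the filter, and the white vertical line separates Control from Dnmt1cKO. Serpina3f, Serpina3g and Serpina3i are highest in Dnmt1cKO 5 to 8, Serpinb1c is present in all 8 Dnmt1cKO libraries and in no Control, and the library labelled Control 4 stands apart for Spint2.

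Promoters of both kinds of gene are shown first, those that appeared in Dnmt1cKO and those that this epithelium already expressed, because DNA methylation acts on CG dinucleotides and the windows differ in how many they hold. The windows are from RefSeq (build GRCm38.p6, the same assembly as the mm10 of the deposited table), run 5′ to 3′ from 250 bases before to 50 after the start of each gene, and carry capitals at every CG dinucleotide, the site that Dnmt1 methylates, and at every TTCNNNGAA, the core of the site bound by STAT factors. The first 5 belong to genes with at most 1 count over all Controls: Serpina3f (chr12:104214294-104214593, plus strand), Serpina3g (chr12:104235897-104236196, plus strand), Serpina3i (chr12:104262872-104263171, plus strand), Serpinb1c (chr13:32898091-32898390, minus strand) and Serpinb6b (chr13:32965011-32965310, plus strand).
Serpina3f: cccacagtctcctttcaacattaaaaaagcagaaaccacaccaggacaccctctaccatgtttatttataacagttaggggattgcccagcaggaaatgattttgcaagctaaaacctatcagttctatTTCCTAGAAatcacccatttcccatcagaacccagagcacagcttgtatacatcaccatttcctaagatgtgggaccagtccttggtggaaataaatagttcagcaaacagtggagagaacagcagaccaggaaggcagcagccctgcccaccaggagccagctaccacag
Serpina3g: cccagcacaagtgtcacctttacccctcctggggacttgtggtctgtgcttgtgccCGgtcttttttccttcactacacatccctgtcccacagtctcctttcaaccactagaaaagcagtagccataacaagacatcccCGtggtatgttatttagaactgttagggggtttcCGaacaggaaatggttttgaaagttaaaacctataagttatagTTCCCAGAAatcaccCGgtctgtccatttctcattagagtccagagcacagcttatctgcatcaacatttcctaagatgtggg
Serpina3i: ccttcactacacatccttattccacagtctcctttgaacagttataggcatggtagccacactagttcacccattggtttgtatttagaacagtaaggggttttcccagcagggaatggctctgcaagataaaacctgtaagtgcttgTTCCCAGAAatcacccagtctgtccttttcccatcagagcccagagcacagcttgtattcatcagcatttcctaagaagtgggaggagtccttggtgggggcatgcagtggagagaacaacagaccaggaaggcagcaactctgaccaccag
Serpinb1c: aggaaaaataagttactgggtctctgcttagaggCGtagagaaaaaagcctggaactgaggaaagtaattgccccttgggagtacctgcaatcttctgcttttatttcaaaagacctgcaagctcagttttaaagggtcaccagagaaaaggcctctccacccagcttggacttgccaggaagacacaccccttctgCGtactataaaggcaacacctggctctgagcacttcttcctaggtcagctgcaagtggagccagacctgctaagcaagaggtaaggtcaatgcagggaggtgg
Serpinb6b: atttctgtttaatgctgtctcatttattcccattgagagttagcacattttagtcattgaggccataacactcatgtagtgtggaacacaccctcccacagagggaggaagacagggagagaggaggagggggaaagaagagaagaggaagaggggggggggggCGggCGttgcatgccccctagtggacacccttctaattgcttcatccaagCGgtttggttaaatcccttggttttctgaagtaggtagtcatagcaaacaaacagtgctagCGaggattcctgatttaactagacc

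The other 3 belong to genes with many counts in Control 1, namely Serpinb6a (chr13:34002745-34003044, minus strand), Spint1 (chr2:119237110-119237409, plus strand) and Spint2 (chr7:29281928-29282227, minus strand).
Serpinb6a: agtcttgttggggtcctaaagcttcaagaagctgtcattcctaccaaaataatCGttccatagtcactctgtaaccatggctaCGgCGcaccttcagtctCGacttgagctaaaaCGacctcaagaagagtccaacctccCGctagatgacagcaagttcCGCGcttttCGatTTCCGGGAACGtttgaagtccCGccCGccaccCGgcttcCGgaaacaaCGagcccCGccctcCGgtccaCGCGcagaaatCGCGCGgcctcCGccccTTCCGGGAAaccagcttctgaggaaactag
Spint1: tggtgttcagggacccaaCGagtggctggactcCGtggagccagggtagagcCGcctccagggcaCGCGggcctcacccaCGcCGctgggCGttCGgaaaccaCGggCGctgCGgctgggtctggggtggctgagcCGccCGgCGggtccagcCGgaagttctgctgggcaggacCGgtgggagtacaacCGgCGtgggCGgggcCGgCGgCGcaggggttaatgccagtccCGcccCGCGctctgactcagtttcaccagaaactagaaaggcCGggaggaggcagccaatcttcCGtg
Spint2: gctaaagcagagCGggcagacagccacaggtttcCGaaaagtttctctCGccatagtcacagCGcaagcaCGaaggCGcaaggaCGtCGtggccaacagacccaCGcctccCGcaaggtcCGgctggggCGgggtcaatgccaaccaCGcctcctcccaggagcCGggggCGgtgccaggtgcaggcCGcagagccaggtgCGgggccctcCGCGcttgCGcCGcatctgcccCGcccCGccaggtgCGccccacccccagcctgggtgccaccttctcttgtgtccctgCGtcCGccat

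The windows of Serpina3f and Serpina3i held 0 CG dinucleotides, that of Serpinb1c 2, and those of Serpina3g and Serpinb6b 4 each. Those of Serpinb6a, Spint2 and Spint1 held 25, 26 and 28. Over all 32851 promoter windows of the table the median was 7 (quartiles 3 and 20), and 94.6% held at least 1. Serpinb5, the epithelial serpin maspin, held 7, and Serpinh1 held 16. By the counts in this series, 12 members with more than 1 Control count and a window had a median of 11 CG (range 1 to 41), and 17 members with at most 1 Control count and counts in Dnmt1cKO had a median of 3 (0 to 10). The 27 members with no count in any library had the same median, 3 (0 to 11), so a low CG number was shared by the genes that appeared and by those that stayed at 0. Windows were found for 56 of the 65 genes. They rest on RefSeq starts, and for the genes shown these lay at most 98 bases (Serpina3g) from the GENCODE start. For some other members the distance was large, such as 1116 bases for Serpinb11, 2515 for Serpine2 (the window with 41 CG) and 92184 for Serpina1b. The medians and ranges above include such windows. TTCNNNGAA was found once in each of the windows of Serpina3f, Serpina3g and Serpina3i, and in 8.30% of all windows. It was also found 2 times in the window of Serpinb6a, and once in those of Spint5 and of Serpina11, Serpina1f, Serpinb2 and Serpinb9c, which had no count in any library. Serpina3f, Serpina3g and Serpina3i are copies of each other, with 81.7% to 83.7% identity over the aligned parts of their windows, so their matches are not separate observations. TTCNNNGAA and CG read the same on both strands. TCCCGC, a core of E2F sites, was searched on both strands and was found in 19.98% of all windows. It was found in 0 of the windows of the first 5 genes, 2 times in that of Serpinb6a, and once in those of Spint1 and Spint2. TCCCGC contains a CG, so its absence from windows with few CG is not a separate observation. A match, or its absence, in these bases is a description of the letters only.

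**Figure D2:**
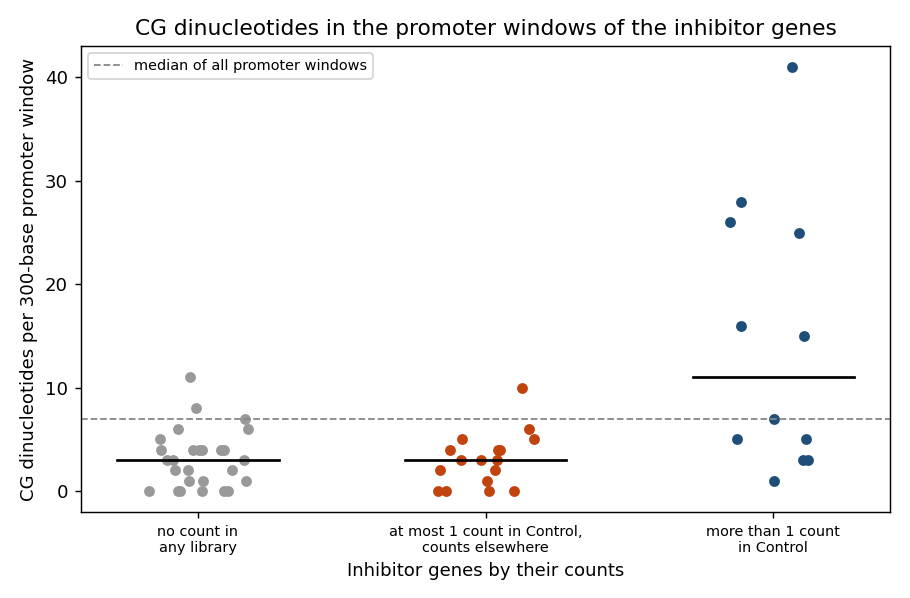
Number of CG dinucleotides in the 300-base promoter window (vertical axis) of the 56 inhibitor genes with a window, grouped by their counts in this series; points are genes, black lines are medians (3, 3 and 11) and the dashed line is the median over all promoter windows (7). The 4 genes above 20 all belong to the group with more than 1 count in Control.

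Serpina3f, Serpina3g and Serpina3i, 3 antichymotrypsin-like genes within 54829 bases of chromosome 12, appeared together in a subset of the Dnmt1cKO libraries. No Control library held a count of Serpina3g or Serpina3i, and Serpina3f held 1 count, in Control 1. All 3 were unevenly spread over the mutants: each Dnmt1cKO library with the code 6 or 7 stood far above each with a code from 2 to 5. In mouse, this cluster holds many copies of what is a single antichymotrypsin gene in humans, and Serpina3g is known as an intracellular inhibitor of cathepsins in activated immune cells.

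Serpina3i (ENSMUSG00000079014.4; mm10 chromosome 12, 104263122 to 104269372, plus strand) had levels of 1.46, 0.224, 2.31, 0.206, 87.6, 27.6, 60.7 and 77.9 CPM in Dnmt1cKO 1 to 8, against 0 counts in all 4 Controls. The lowest Dnmt1cKO levels, in Dnmt1cKO 2 and 4, were 1 and 2 counts. The mean of 32.2 ± 37.6 CPM (SD, n = 8) was at least 137-fold higher than the 0.235 CPM that 3 counts over the whole Control group would give. This value chose the gene and is not tested.

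Serpina3f (chromosome 12, 104214544 to 104221129) stood at 0.730, 0, 2.70, 0, 33.0, 21.2, 32.0 and 27.1 CPM in Dnmt1cKO 1 to 8. It stood at 0.123 CPM (1 count) in Control 1 and 0 in the other Controls. Its mean was 186 times the Control level (95% counting interval 33.4 to 7360). Serpina3g (chromosome 12, 104236245 to 104241939) stood at 2.12, 0, 1.31, 0.103, 17.0, 11.5, 11.8 and 24.5 CPM, at least 36.4-fold above Control. Neither passed the test over all genes with all libraries (edgeR quasi-likelihood, Benjamini-Hochberg adjusted p = 0.0586 for Serpina3f and 0.0678 for Serpina3g, and 0.00362 to 0.943 and 0.00723 to 0.903 over 20 alternatives). Both had groups that touched or overlapped at 0, through Dnmt1cKO 2 and, for Serpina3f, Dnmt1cKO 4.

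The 3 genes share sequence, and the division of reads between them rests on the authors' software. Their longest annotated coding transcripts were 88.0% to 88.8% identical where aligned. Of all 50-base windows in these transcripts, 10.7% for Serpina3f, 16.0% for Serpina3g and 15.4% for Serpina3i also occurred in a transcript of another gene, mostly in each other, in Serpina3h and in Serpina3e-ps. The level of each gene is therefore less certain than that of the group, which had 1 Control count in sum.

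Further along the same cluster, Serpina3n, an acute-phase serpin made by liver and by reactive glia (chromosome 12, 104406729 to 104414329), stood at 1.02, 11.8, 7.89 and 7.81 CPM in Dnmt1cKO 1, 5, 6 and 7 and at 0 in the other 4 Dnmt1cKO libraries and in all Controls. Its highest levels were thus in 3 of the 4 libraries in which its neighbours were high, and it did not pass the filter. Serpina3m reached 2.37 CPM in Dnmt1cKO 5 and at most 0.285 CPM elsewhere. The genes between them did not follow this pattern: Serpina3j stood at 7.50 CPM in Control 1 and at 0 to 3.33 CPM in Dnmt1cKO, and Serpina3k at 122 CPM (43 counts) in the library labelled Control 4, 0 in the other Controls and 0 to 18.3 CPM in Dnmt1cKO. Of the 22 members on chromosome 12, 7 had no count anywhere. Those include Serpina1a and Serpina1c, antitrypsins of liver, and Serpina6, the carrier of corticosteroids.

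The split of the Serpina3 genes followed the description code, and the code also sets the Controls apart. Within code 4, Serpina3i stood at 0 in Control 1 and 2.31 CPM in Dnmt1cKO 3, and within code 5 at 0 in Control 2 and 0.206 CPM in Dnmt1cKO 4. Within code 6 it stood at 0 in Control 3 and 87.6 CPM in Dnmt1cKO 5, and within code 7 at 0 in the library labelled Control 4 and 27.6 to 77.9 CPM in Dnmt1cKO 6 to 8. At the mean Dnmt1cKO level, 262, 95.6, 42.8 and 11.3 counts would be expected in Controls 1 to 4, and at the lowest Dnmt1cKO level 1.68 in Control 1 and fewer in the others. The high libraries thus shared codes with Control 3 and the library labelled Control 4, the shallowest ones, and the deep Controls shared codes with Dnmt1cKO libraries in which the genes were near 0. Immune markers added up to 52.3 to 137 CPM in Dnmt1cKO 1 to 4 and 20.5 to 58.3 CPM in Dnmt1cKO 5 to 8. Hepatocyte markers added up to 8.32 to 102 CPM and 0.521 to 77.6 CPM in these libraries, with Alb at 18.5, 0.0999, 0.417 and 67.3 CPM in Dnmt1cKO 5 to 8 and 20.4, 66.7, 2.004 and 2.48 CPM in Dnmt1cKO 1 to 4. The part of the code, of any batch it may mark and of these markers in the split was not tested.

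**Figure D3:**
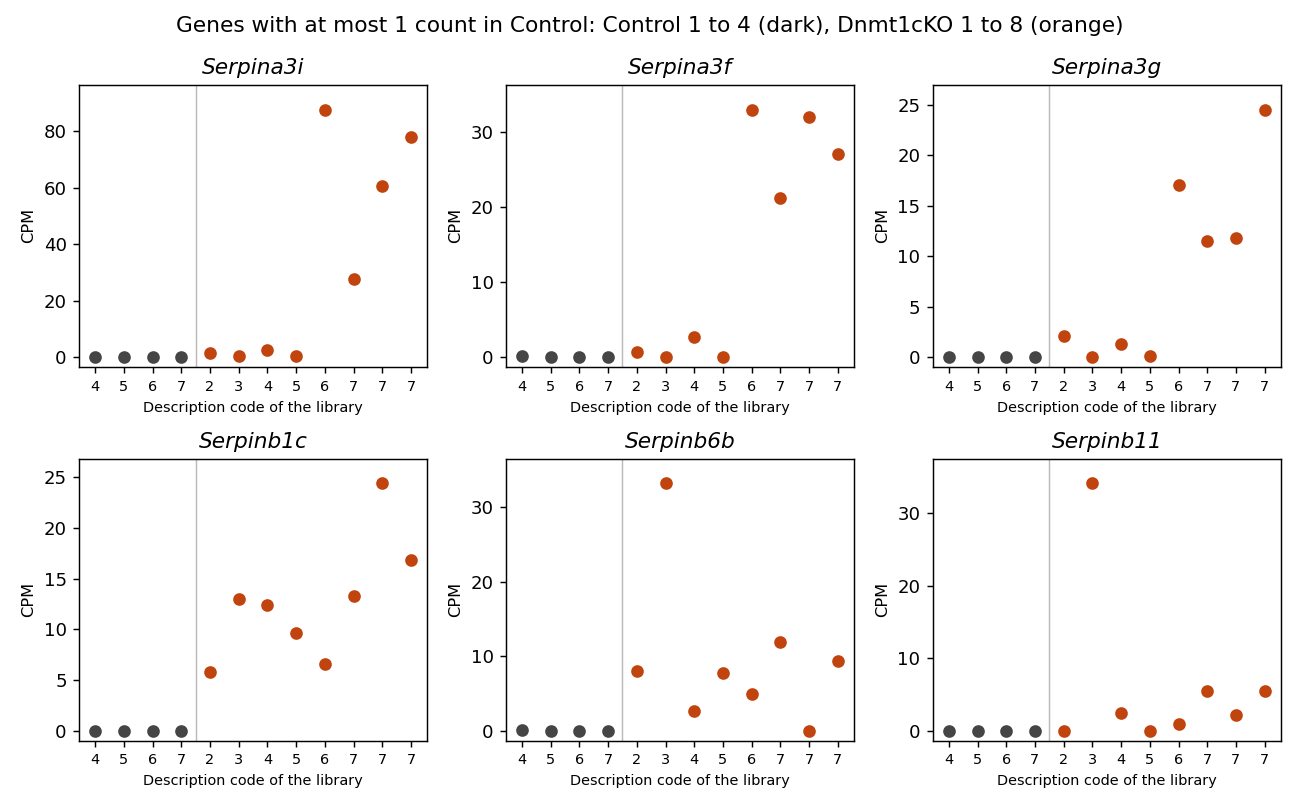
CPM (vertical axis, its own scale in each panel) of 6 genes with at most 1 count over all Controls, in Control 1 to 4 (dark points) and Dnmt1cKO 1 to 8 (orange points), with the description code of each library on the horizontal axis. The Serpina3 genes are high in the Dnmt1cKO libraries with codes 6 and 7, at 27.6 to 87.6 CPM for Serpina3i, whereas Serpinb1c lies between 5.76 and 24.4 CPM in all 8.

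Among clade b genes, Serpinb1c was the member whose presence in Dnmt1cKO was most even. Serpinb1c belongs to the leukocyte elastase inhibitor group (ENSMUSG00000079049.9; chromosome 13, 32881434 to 32898211, minus strand). It stood at 5.76, 13.02, 12.4, 9.60, 6.58, 13.3, 24.4 and 16.8 CPM in Dnmt1cKO 1 to 8. Every Control library was at 0. The level was thus above every Control in all 8 mutants, and the mean of 12.7 ± 5.97 CPM (SD, n = 8) was at least 54.2-fold higher than the floor of 3 counts over the Control group. At the lowest Dnmt1cKO level, 46.9, 17.1, 7.65 and 2.03 counts would have been expected in Controls 1 to 4. By depth alone, its absence was thus resolved in Controls 1 to 3 and not in the library labelled Control 4. Control 3 also held 0 counts of the epithelial gene Serpinb5, where 41.4 would have been expected on the same measure. A 0 in Control 3 therefore does not settle that Serpinb1c was absent from the epithelium.

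Serpinb1c passed the edgeR test, with p adjusted over all 12761 genes (Benjamini-Hochberg adjusted p = 0.0155), and was below the threshold in 17 of 20 alternatives. With no Control count it passed the filter on low counts through Dnmt1cKO alone, so a gene kept in this way had to differ, and the p is given as a description. The alternatives above the threshold were limma-voom with quality weights, the block by title number and the omission of both Control 3 and the library labelled Control 4 (adjusted p = 0.263, 0.478 and 0.0599; the lowest over the alternatives was 5.67e-06). Of its 50-base transcript windows 6.63% occurred in another gene, Serpinb1a among them.

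Its neighbours varied more. Serpinb1a, the main inhibitor of neutrophil elastase in this group, had 1 count in Control 3 and stood at 0 to 25.8 CPM in Dnmt1cKO, with 0 in Dnmt1cKO 2, 7 and 8 (adjusted p = 0.227). Serpinb6b, a copy of the intracellular inhibitor Serpinb6a and named after its values were seen, stood at 8.02, 33.2, 2.70, 7.74, 5.00, 11.99, 0 and 9.41 CPM in Dnmt1cKO 1 to 8, against 1 count in Control 1, a ratio of 125 (95% counting interval 22.4 to 4926). It did not pass the test (adjusted p = 0.0603, and 0.00273 to 0.683 over the alternatives), and Dnmt1cKO 7, at 0, was the only mutant library at the Control level. Serpinb1a, Serpinb1c and Serpinb6b lie next to each other among the serpins of chromosome 13, within 136976 bases. Of the 15 members on this chromosome, 8 had no count, among them Serpinb1b and the Serpinb9 copies named c to g.

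Serpinb11, an epithelial clade b serpin of chromosome 1, had no Control count and stood at 0, 34.1, 2.47, 0, 0.877, 5.49, 2.19 and 5.42 CPM in Dnmt1cKO 1 to 8. Dnmt1cKO 2 held 152 of its 289 counts, and the gene did not pass the test (adjusted p = 0.115). Other genes of the same chromosome 1 cluster, Serpinb2, Serpinb3a to Serpinb3d, Serpinb7 and Serpinb13, which are expressed in stratified epithelium, had no count in any library, and Serpinb12 had 22 counts in Dnmt1cKO 6 and none elsewhere.

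The members that Control epithelium expressed form the contrast. Per kilobase of annotated exon, a scale on which genes can be set side by side, the highest median levels in Dnmt1cKO were those of Serpinh1 (183 CPM per kilobase), Spint2 (39.8), Serpine2 (34.5), Spint1 (34.3), Serpinb6a (27.4) and Serpinb5 (25.5). Serpinb1c followed at 7.79, Serpinf1 at 6.85, Serpina3i at 6.72, Serpina3f at 5.21, Serpinb6b at 3.48 and Serpina3g at 3.23. Serpinb11 stood at 1.06 and Serpina3n at 0.247. No library was near the Serpina3i median: Dnmt1cKO 1 to 4 lay at 0.0928 to 1.04 and Dnmt1cKO 5 to 8 at 12.4 to 39.4 CPM per kilobase. The medians of Serpina3f and Serpina3g also fell between these sets of libraries, so the rank of these genes describes none of them well. By median, Serpinb1c, Serpinb6b, Serpinb11 and these Serpina3 genes thus lay below the 6 members listed first. Serpinf1, which had Control counts, lay between Serpinb1c and Serpina3i. Of the genes listed here with at most 1 Control count, all but Serpina3n lay above Serpinb9 (0.872), Serping1 (0.653), Serpinb8 (0.602) and Serpini1 (0.347), which had more. Other genes without a Control count, such as Serpina3m and Serpina1b, had a median of 0. In Dnmt1cKO 5, Serpina3i (39.4 CPM per kilobase) exceeded Spint1 (26.2) and Serpinb5 (22.9). On this scale Serpine2, Spint1, Serpinb6a and Serpinb5 lay close together, and the SD between mutant libraries (8.48 to 15.2 CPM per kilobase) exceeded the steps between them. The exons summed to 8287 bases for Serpine2 and 5409 for Serpinb6a, whose longest coding transcripts hold 2210 and 1654 bases. For Spint1 and Serpinb5 they summed to 2767 and 2750 bases, against transcripts of 2323 and 2672. The order and closeness of these genes therefore depend on the length chosen.

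Among the epithelial inhibitors, Spint1, the matriptase inhibitor HAI-1 (chromosome 2, 119237362 to 119249527), stood at 50.2 and 112 CPM in Controls 1 and 2, and at 1.51 and 2.84 CPM in Control 3 and the library labelled Control 4. In Dnmt1cKO it stood between 43.4 and 119 CPM (median 94.8). The mutants thus lay around Controls 1 and 2 and above the other Controls, and the gene did not pass the test (log2 fold change 1.02 ± 0.74, SE, adjusted p = 0.508). The log2 fold change was 0.18 without Control 3 and the library labelled Control 4. Serpinb5, or maspin, a serpin of basal and gland epithelium and a known target of p53 (chromosome 1, 106861173 to 106883348), had the same shape: 86.7 and 64.4 CPM in Controls 1 and 2, 0 in the other Controls, and 31.2 to 172 CPM in Dnmt1cKO (median 70.0, adjusted p = 0.591). At the lowest Dnmt1cKO level 41.4 counts of Serpinb5 would have been expected in Control 3, where 0 were found. In that library 12 of the 16 epithelial markers lay below every mutant, among them Krt14 (1.51 CPM), Trp63 (2.26 CPM), Krt19 (11.3 CPM), Foxa1 (2.26 CPM) and Shh (3.77 CPM), with Krt5 (292 CPM) just under the lowest mutant (298 CPM). The other 4, Epcam, Krt8, Krt18 and Elf3, did not. The part of these markers in the levels of Serpinb5 and Spint1 was not tested.

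Serpinb6a, an abundant intracellular inhibitor (chromosome 13, 33917918 to 34002794), stood at 254, 48.2, 83.7 and 11.4 CPM in Controls 1 to 4 and at 59.5 to 331 CPM in Dnmt1cKO (median 148), with overlapping groups (log2 fold change 0.65 ± 0.59, SE, adjusted p = 0.604). Serpinb8, an inhibitor of furin, stood at 3.69 CPM in Control 1 and 0 to 5.09 CPM in Dnmt1cKO. Serpinb9, which protects cells from granzyme B, stood at 148 CPM in the library labelled Control 4, 0 to 2.95 CPM in the other Controls and 0 to 7.63 CPM in Dnmt1cKO.

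Spint2, the inhibitor HAI-2 (chromosome 7, 29256323 to 29281912), was the only member called lower (log2 fold change -2.49 ± 0.62, SE, edgeR quasi-likelihood with Benjamini-Hochberg adjusted p = 0.0365). Its levels were 151, 210, 200 and 3509 CPM in Controls 1 to 4, and 159, 185, 142, 141, 178, 217, 219 and 206 CPM in Dnmt1cKO 1 to 8. The mutants overlapped Controls 1 to 3, and the library labelled Control 4 stood alone. Without that library the log2 fold change was 0.025 with an adjusted p of 0.980 (0.000348 to 0.980 over the alternatives). The call was also lost without any 1 of 7 of the mutants, all but Dnmt1cKO 2, and held in 9 of 20 alternatives.

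**Figure D4:**
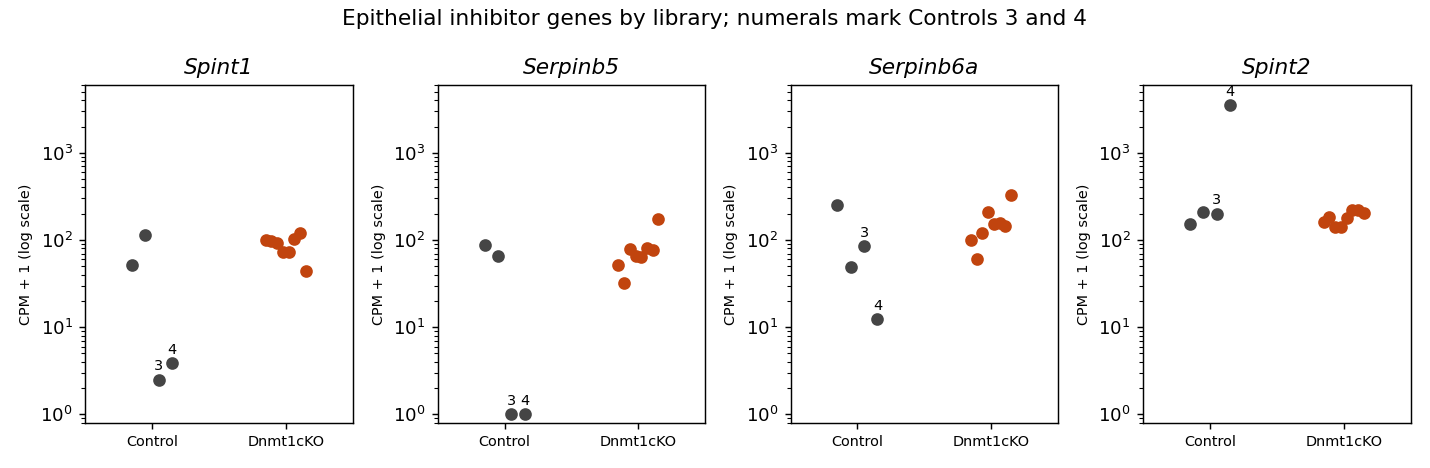
CPM + 1 on a logarithmic axis for 4 inhibitor genes of the epithelium in the 4 Control (dark) and 8 Dnmt1cKO (orange) libraries; the numerals mark Control 3 and the library labelled Control 4. Spint1 and Serpinb5 are low in those Controls (1.51 and 2.84 CPM, and 0), and Spint2 is high in the library labelled Control 4 at 3509 CPM.

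Of the inhibitors of extracellular matrix and stroma, Serpinh1 and Serpine2 had counts in all 12 libraries. Serpinh1, the collagen chaperone HSP47, which inhibits no protease (chromosome 7, 99345376 to 99353239), stood at 369, 276, 700 and 59.7 CPM in Controls 1 to 4 and 275 to 598 CPM in Dnmt1cKO (median 447, adjusted p = 0.803). Serpine2, the thrombin and urokinase inhibitor nexin-1, stood at 126, 125, 369 and 222 CPM in Control and 141 to 421 CPM in Dnmt1cKO (median 286, adjusted p = 0.649). For both genes the groups overlapped. Serpinf1, the anti-angiogenic factor PEDF, stood at 7.87, 25.3, 128 and 0 CPM in Controls 1 to 4 and at 0 to 47.6 CPM in Dnmt1cKO. Stromal markers added up to 5374.5, 5654, 10867 and 1322 CPM in these Controls. Among the mutants their sum was highest in Dnmt1cKO 2 (6846 CPM), where Serpinf1 was at 0. It was lowest in Dnmt1cKO 6 (444 CPM), where Serpinf1 stood at 33.8 CPM. The part of these markers in the level of Serpinf1 was not tested. In bulk tissue, fewer cells of a type and less RNA per cell cannot be told apart.

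Serping1 and Serpini1 had lower means in Dnmt1cKO and did not pass the test. Serping1, which inhibits the first complement component, stood at 14.0, 18.5, 0.754 and 2.84 CPM in Controls 1 to 4 and at 4.01, 3.59, 2.47, 2.99, 0, 0, 0.208 and 0.570 CPM in Dnmt1cKO 1 to 8 (log2 fold change -2.41 ± 1.36, SE, adjusted p = 0.370). Controls 1 and 2 lay above every mutant, while Control 3 and the library labelled Control 4 lay among them. Serpini1, or neuroserpin, an inhibitor of tissue plasminogen activator in neurons, stood at 31.0, 17.9, 31.7 and 0 CPM in Controls 1 to 4 and 0 to 11.7 CPM in Dnmt1cKO (log2 fold change -2.27 ± 1.11, SE, adjusted p = 0.281). Its highest mutant levels were 11.7 CPM in Dnmt1cKO 4, where neural and glial markers added up to 729 CPM, and 8.33 CPM in Dnmt1cKO 7, where they added up to 35.8 CPM. In Dnmt1cKO 8 these markers reached 310 CPM with Serpini1 at 2.28 CPM, and over all mutants they ranged from 19.6 to 729 CPM. They stood at 666, 224, 737 and 39.8 CPM in Controls 1 to 4. Their part in the level of Serpini1 was not tested.

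In sum over the 22 tested members, 2 were called higher (Serpina3i and Serpinb1c), where 1.03% of all tested genes were, and 1 was called lower (Spint2), where 1.55% were. Serpina3i was named in the choice of the set because of this contrast, so its call is no test. Both genes had no Control count and passed the filter through Dnmt1cKO alone. Nothing is read from the share. With no adjustment, p in edgeR was under 0.05 for 7 higher and 3 lower members, where 8.19% and 9.54% of all tested genes were. Fitted values were above 0 for 13 members, where 57.3% of all were, and 4 tested members had no Control count, where 2.77% did. With both of the shallowest Controls left out, 0 members were called in either direction, where 0.322% of the genes tested were called higher and 0.0143% lower. Groups did not overlap for 2 members, again Serpina3i and Serpinb1c, both higher. Of all tested genes 2.59% lay wholly above and 0.486% wholly below, and nothing is read from this count either. The median log2 fold change was 0.54, and 0.22 over all tested genes. Of the 15 epithelial inhibitors listed, 8 had a count and 7 were tested, of which Spint2 was called. Of 5 stromal and matrix inhibitors 0 were called in edgeR, with 0 at an unadjusted p under 0.05, and 0 in DESeq2. Of 15 inhibitors of liver or acute-phase type 1, Serpina3k, was tested and was not called. The filter keeps a gene that is high in 1 group alone, so these counts describe the genes that passed it.

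**Figure D5:**
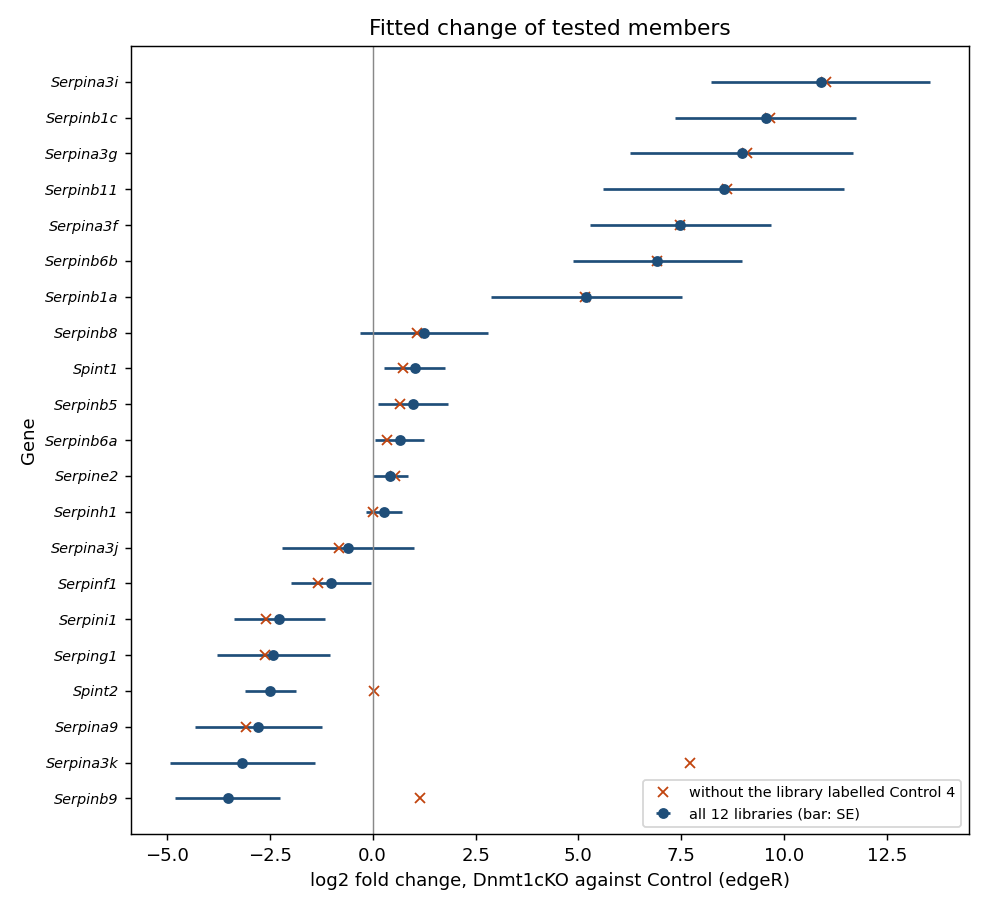
Fitted log2 fold change of Dnmt1cKO against Control (edgeR) for 21 of the 22 tested members, with all 12 libraries (blue points, bars are SE) and without the library labelled Control 4 (orange crosses). The fitted values of genes at 0 in Control depend on a small added count and are no measure of size; Spint2, Serpina3k and Serpinb9 move to the other side of 0 without that library.

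The proteases that these inhibitors act on were taken from a list of 60 enzymes, receptors and activators, of which 43 had a count and 29 were tested. None of the 29 was called in edgeR, although an unadjusted p under 0.05 was reached by 3 with higher and 2 with lower values in Dnmt1cKO. Over all tested genes these shares were 8.19% and 9.54%, so nothing is read from the counts. DESeq2 called 1 higher, Ctss, where it called 487 of all 12761 genes higher. St14, or matriptase, the target of Spint1 and Spint2, stood at 163, 205, 345 and 512 CPM in Controls 1 to 4 and 234 to 346 CPM in Dnmt1cKO (median 310, log2 fold change -0.021 ± 0.39, SE, adjusted p = 0.987). Met, the receptor of the growth factor that hepsin and matriptase activate, stood at 2.84 to 93.1 CPM in Control and 20.5 to 93.8 CPM in Dnmt1cKO (adjusted p = 0.855). Tmprss2, an androgen-regulated surface protease of prostate, stood at 2.26 to 398 CPM in Control and 34.2 to 196 CPM in Dnmt1cKO (adjusted p = 0.639). The groups overlapped for all 3.

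Ctsl and Ctss encode lysosomal cathepsins, a class of protease that some clade b and Serpina3 inhibitors bind. Ctsl stood at 184, 68.4, 12.8 and 5.69 CPM in Controls 1 to 4 and at 122 to 202 CPM in Dnmt1cKO (log2 fold change 1.31 ± 0.61, SE, adjusted p = 0.249), with Control 1 inside the mutant range. Ctss, named after its values were seen, stood at 5.53, 8.43, 0.754 and 2.84 CPM in Control and at 20.5 to 52.5 CPM in Dnmt1cKO (median 31.6), without overlap, and did not pass the test (log2 fold change 2.79 ± 0.96, SE, adjusted p = 0.115).

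Of 51 protease inhibitors of other families, 35 had a count and 20 were tested. None was called in edgeR, although an unadjusted p under 0.05 was reached by 4 with lower and 0 with higher values, where 9.54% and 8.19% of all tested genes did. DESeq2 called 2 lower, Wfdc2 and Pi15, where it called 1030 of all 12761 genes lower. Aplp2 and App, which carry a Kunitz domain in some of their protein forms, stood at 206 to 893 CPM and 105 to 540 CPM in Control and at 498 to 1111 CPM and 151 to 624.5 CPM in Dnmt1cKO (adjusted p = 0.303 and 0.447). Pebp1, an inhibitor of kinase signalling and of some proteases, stood at 208 to 435 CPM and 267 to 649 CPM (adjusted p = 0.861). Wfdc2, a secreted protein of gland epithelium, stood at 155, 232, 94.2 and 719 CPM in Controls 1 to 4 and at 5.61 to 268 CPM in Dnmt1cKO (median 62.9). All mutants except Dnmt1cKO 8 lay below every Control, but the gene was not called (log2 fold change -1.86 ± 0.60, SE, adjusted p = 0.0913). Slpi, the main secreted inhibitor of leukocyte elastase, had no count in any library.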

How the data were processed

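RNA-seq of 12 libraries was analysed: Control (4) and Dnmt1cKO (8). Reads were demultiplexed with bcl2fastq 2.17.1.14, and Bowtie 0.12.9, RSEM 1.2.3 and the build mm10 are named, per the submitters' processing notes; the annotation is not given in the sources used here. The authors deposited 1 table of expected counts per gene (RSEM estimates that divide reads shared between genes; 38.5% of the genes held a fractional value), which were rounded to whole counts here. Genes were filtered with filterByExpr (minimum count 10, minimum total 15), which left 12761, scaled by TMM, and tested with edgeR 4.0.16 (R 4.3.3) by robust quasi-likelihood F-tests with genotype as the only term. P-values were adjusted by Benjamini-Hochberg over all tested genes, with a threshold of 0.05, and the script was tested on simulated data. CPM are counts scaled to the TMM-adjusted library total. The biological coefficient of variation was 0.984. Alternatives used RLE factors, library totals, no filter, DESeq2 1.42.0, limma 3.58.1 voom, replicate blocks and fewer libraries.

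The labels do not say that the libraries come from separate pools, so p-values measure only the spread between these libraries. Ratios carry an exact 95% interval for counting error only. Where no Control count was found, the fold is a lower bound against 3 counts over the Control group (0.235 CPM); this too covers counting error only. Coordinates and exon lengths are from GENCODE M21 (GRCm38), and promoter windows from RefSeq (GRCm38.p6). Genes were named by a rule: Dnmt1, called members, members without a Control count and with a mean of at least 1 CPM in Dnmt1cKO, the 3 members of each clade with the highest mean, and, in the lists of proteases and other inhibitors, called genes and the 4 with the highest mean. Other genes were named after their values were seen. The values of 1 tested member are not reported here. The members and the gene lists were chosen with earlier results of these data known.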

Additional observations from a re-analysis of the deposited data

Results flagged for a closer look

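In 40 sets, each holding the values of 1 tested inhibitor gene in 1 group, the highest or lowest library was compared with its nearest neighbour by Dixon's ratio at the 95% level. For values without ties chance exceeds this level in about 1 set in 20, but that rate does not hold for these counts with many zeros. A library stood apart in 14 sets. In 5 of them, Serpina3f, Serpina3j, Serpina3k, Serpinb1a and Serpinb6b in Control, the other 3 libraries were at 0, so that any count, even a single one, gives the highest possible ratio. In Control these were Spint2 (3509 CPM), Serpinb9 (148 CPM) and Serpina3k (122 CPM) in the library labelled Control 4, and Serpina9 (36.9 CPM) and Serpinb1a (0.754 CPM, 1 count) in Control 3. In Control 1 they were Serpina3j (7.50 CPM), Serpinb8 (3.69 CPM), Serpina3f (0.123 CPM) and Serpinb6b (0.123 CPM), the last pair on 1 count each. In Dnmt1cKO they were Serpinb11 (34.1 CPM) and Serpinb6b (33.2 CPM) in Dnmt1cKO 2, Serpinb1a (25.8 CPM) in Dnmt1cKO 6, and Serpinb5 (172 CPM) and Serpina3k (18.3 CPM) in Dnmt1cKO 8. The 3 genes of the library labelled Control 4 encode inhibitors of unlike origin, a surface inhibitor of epithelium, an inhibitor of granzyme B and a liver serpin, and this library also held 205 CPM of Alb and 1 count of Dnmt1. No library stood apart for Serpina3i, Serpina3g or Serpinb1c in Dnmt1cKO.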

How the results depend on the processing

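The number of members called higher was 2 with edgeR on all libraries, and 1 of them was Serpina3i, whose values chose it. It was 4 with RLE factors, 6 with DESeq2 and 0 with limma-voom, which called only 8 of all 12761 genes higher. Without both Control 3 and the library labelled Control 4 it was 0. With 1 library left out it ranged from 1 to 4 (1 without any of Control 2, Control 3 and the library labelled Control 4, and 4 without Dnmt1cKO 2). The number called lower, 1, was 0 with limma-voom and 0 without those Controls, and ranged from 0 to 1. Target proteases called higher, 0, were 1 with DESeq2 and 0 to 2 with 1 library left out. The 2 were among 31 tested without Control 1, where 657 of all 13161 tested genes were called higher. Target proteases called lower, 0, were 1 with limma-voom and 0 to 1 with 1 library left out. Other inhibitors called lower, 0, were 1 with RLE factors, 1 without the filter, 2 with DESeq2 and 0 to 1. With a replicate block by title number, 0 members were called higher and 0 lower, where 34 and 31 of all 12761 genes were. Same-numbered libraries correlated at -0.055 to 0.0611 in their deviations and those with the same code at -0.0461 to 0.0536. Control 3 and the library labelled Control 4 are shallow, so these correlations cannot decide whether either label pairs libraries. With the replicate block by code the counts of members called were as without it.

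Over 20 alternatives, 15 of the 22 tested members kept the sign of their log2 fold change. It reversed for Serpina3j (1.60 and 1.96 with the replicate block by title number and by code, 6.36 without Control 1), Serpina3k (1.11 with limma-voom, 1.96 with the title block, 7.71 without the library labelled Control 4, 7.83 without it and Control 3), Serpina9 (1.495 without Control 3, 1.30 without both), Serpinb9 (0.90 with limma-voom, 0.54 with the title block, 1.14 without the library labelled Control 4, 1.13 without both), Serpine2 (-0.046 with RLE factors, -0.038 with DESeq2), Serpinf1 (0.33 with limma-voom, 0.37 with the code block, 0.76 without Control 3, 0.36 without both) and Spint2 (0.025 without the library labelled Control 4, 0.067 without both). The cause of these reversals was not tested, and leaving out a library also changes the filter and the scaling. With 1 library left out, the lowest values of these genes were -0.995 for Serpina3j, -3.60 for Serpina3k, -3.26 for Serpina9, -3.95 for Serpinb9, -1.36 for Serpinf1 and -2.85 for Spint2. The median over all tested genes was 0.22, against 0.072 (RLE factors), 0.38 (library totals), 0.051 (DESeq2), 0.91 (title block) and 1.09 (code block). Over all genes, calls higher and lower were 132 and 198, against 170 and 726 (RLE factors), 113 and 47 (library totals), 487 and 1030 (DESeq2), and 45 and 2 (without both Controls). They were 8 and 31 with limma-voom, 136 and 213 without the filter and 135 and 72 with the code block. Without Control 1 they were 657 and 494, without the library labelled Control 4 60 and 36, and without Dnmt1cKO 2 163 and 158. The counts of members called are to be read beside these totals. In the library labelled Control 4, 3 counts are 8.53 CPM, so lower levels there were not resolved.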

Other observations

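Several clade a serpins had counts in few libraries or in a single one. Serpina1e, an antitrypsin, stood at 121 CPM in Control 3 and at 6.29, 1.08 and 7.13 CPM in Dnmt1cKO 2, 3 and 8, with no count in the other 8 libraries. Serpina1b was found in Dnmt1cKO 1 alone (5.47 CPM), and Serpina1d (3.30 CPM), Serpina5 (3.996 CPM) and Serpina3c (1.60 CPM) in Dnmt1cKO 6 alone. In the libraries with Serpina1e counts, Alb, the main product of hepatocytes, stood at 73.9 CPM (Control 3), 66.7, 2.004 and 67.3 CPM (Dnmt1cKO 2, 3 and 8). In those without, it was highest in the library labelled Control 4 (205 CPM), stood at 20.4 and 18.5 CPM in Dnmt1cKO 1 and 5, and was between 0.0999 and 2.48 CPM in the other 5. Ahsg, another hepatocyte gene, had no count in any library. Serpina1b, Serpina1d and Serpina1e share 35.8%, 50.9% and 35.6% of their 50-base transcript windows with other genes, so which copy a read came from is uncertain. The part of liver RNA in these values was not tested.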
